A study of Homo sapiens with 4 samples.

Results

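In MM1.S myeloma cells, 940 sites bound in both IRF3 ChIP-seq replicates lay at an end of a long noncoding RNA (lncRNA) gene and far from every protein-coding gene end. They were 940 of 32246 shared regions, or 2.92%, and 5.43% of the 17301 shared regions more than 10 kb from coding gene ends. A shared region was a merged stretch with at least 1 peak from each replicate. A region was taken when its summit, the base of highest signal in its strongest peak, lay within 1 kb of a RefSeq lncRNA gene end and over 10 kb from every RefSeq protein-coding gene end. The regions were thus chosen by the presence of a peak in both replicates and by summit position. The peak values given for them come from the same ChIP-over-input contrast and are descriptions without a test. The 940 regions were nearest to 889 different lncRNA genes, and 50 of these genes had more than 1 region.

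MM1.S is an established line grown from human multiple myeloma, a cancer of plasma cells. The study held 2 ChIP replicates for IRF3, each with an input of its own, all from untreated cells fixed with formaldehyde. Peaks were called on 38568845 and 46474586 ChIP tags against 58025919 and 60348415 input tags, and the inputs entered only through those calls. Whether the replicates are separate cultures is not stated in the labels, so their spread can be technical. As a check of cell identity, a shared summit lay within 1 kb of an end at 7 of 7 plasma cell marker genes and at 1 of 8 markers of other cell types, CD3E, beside 50% of all protein-coding genes (10025 of 20037). Binding is not a measure of expression, so these few genes say little of cell identity.

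IRF3 is a transcription factor that waits in the cytoplasm of resting cells and, once phosphorylated downstream of nucleic-acid sensors, turns on interferon and antiviral genes. IRF proteins bind repeats of the letters GAAA, called interferon-stimulated response elements (ISRE), and some family members bind mixed sites beside ETS factors. lncRNA genes are transcribed like coding genes but yield no protein. Some of their RNAs act in the nucleus on chromatin, others bind proteins or microRNAs, and others serve mainly as precursors of small RNAs.

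Promoters of 5 lncRNA genes are shown because the results return to them. SNHG5, DANCR and NORAD are well-known lncRNAs among the regions of high fold enrichment, MIR17HG is the precursor of the miR-17 cluster, and CARINH, a neighbour of the interferon regulatory factor gene IRF1, held the most ISRE-like matches. Each sequence is from RefSeq, build GRCh38.p14, and runs 5′ to 3′ on the gene's strand from 250 bases before the annotated start to 50 bases after it. Capitals mark every match, on either strand, to the ISRE-like motif (GAAANNGAA followed by A), the ETS-IRF composite (GGAANNGAA followed by A), the ETS motif (CCGGAAG), the E-box (CACGTG), the CCAAT box or the GC box (GGGCGG). All 5 windows lay wholly inside their shared region.
SNHG5, chr6:85678684-85678983, minus strand: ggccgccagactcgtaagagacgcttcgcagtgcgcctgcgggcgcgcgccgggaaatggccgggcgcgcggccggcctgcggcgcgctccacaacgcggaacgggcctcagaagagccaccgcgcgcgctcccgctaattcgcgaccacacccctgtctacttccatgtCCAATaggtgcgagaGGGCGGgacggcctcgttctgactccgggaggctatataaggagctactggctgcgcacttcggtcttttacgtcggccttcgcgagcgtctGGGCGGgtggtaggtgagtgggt
DANCR, chr4:52712144-52712443, plus strand: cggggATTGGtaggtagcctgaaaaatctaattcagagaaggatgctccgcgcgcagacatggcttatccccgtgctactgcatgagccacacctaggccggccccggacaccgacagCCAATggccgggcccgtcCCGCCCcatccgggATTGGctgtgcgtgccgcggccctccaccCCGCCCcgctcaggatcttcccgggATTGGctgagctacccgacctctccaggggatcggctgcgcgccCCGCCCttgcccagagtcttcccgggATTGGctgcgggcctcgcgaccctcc
NORAD, chr20:36050911-36051210, minus strand: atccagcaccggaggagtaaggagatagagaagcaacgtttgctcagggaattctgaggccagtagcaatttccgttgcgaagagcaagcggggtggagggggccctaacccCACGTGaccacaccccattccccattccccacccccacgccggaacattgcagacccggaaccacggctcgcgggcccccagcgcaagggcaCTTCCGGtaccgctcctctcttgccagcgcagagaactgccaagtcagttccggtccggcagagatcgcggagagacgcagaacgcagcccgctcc
MIR17HG, chr13:91347437-91347736, plus strand: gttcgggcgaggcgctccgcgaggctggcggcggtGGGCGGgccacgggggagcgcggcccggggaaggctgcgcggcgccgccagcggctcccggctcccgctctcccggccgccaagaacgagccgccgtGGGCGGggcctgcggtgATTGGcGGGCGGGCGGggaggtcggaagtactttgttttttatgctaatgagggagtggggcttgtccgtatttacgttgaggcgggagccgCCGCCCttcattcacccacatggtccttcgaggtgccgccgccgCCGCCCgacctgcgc
CARINH, chr5:132410679-132410978, plus strand: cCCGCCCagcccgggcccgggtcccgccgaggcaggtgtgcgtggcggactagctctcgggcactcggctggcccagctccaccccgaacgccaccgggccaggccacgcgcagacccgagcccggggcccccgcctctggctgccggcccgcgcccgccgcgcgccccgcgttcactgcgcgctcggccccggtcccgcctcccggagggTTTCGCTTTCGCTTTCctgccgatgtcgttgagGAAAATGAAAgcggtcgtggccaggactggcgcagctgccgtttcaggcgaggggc

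The DANCR window held 5 CCAAT matches and 3 GC boxes, and the MIR17HG window held 6 GC boxes and 1 CCAAT match. The SNHG5 window held 2 GC boxes and 1 CCAAT match, and the NORAD window held 1 ETS match and 1 E-box. The CARINH window held 3 ISRE-like matches and 1 GC box, and its summit lay at base 3 of the window, while the summits of the other 4 regions lay outside their windows. A match is a description of letters and not of a binding site.

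The regions were of intermediate strength within the series. The fold enrichment, the authors' ratio of ChIP pileup to local input background at a peak's summit, had a median of 4.47 in replicate 1 (quartiles 3.39 and 6.19, range 1.84 to 39.5) and 5.45 in replicate 2 (quartiles 3.76 and 8.27, range 1.95 to 72.4). At the 9161 shared regions within 1 kb of a coding gene end the medians were 5.34 and 8.04, and at the 16361 other shared regions far from coding ends and over 1 kb from lncRNA ends they were 3.999 and 4.20. In both replicates the lncRNA-end regions thus had a median below that of coding ends and above that of the other far regions. The median pileup, which counts the fragments stacked over the summit, was 76 in replicate 1 and 59 in replicate 2. The regions had a median length of 818 bp, against 1016 bp at coding ends and 642 bp at the other far regions.

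Strength was ranked over all shared regions by the worse of a region's 2 within-replicate ranks of fold enrichment. By that rank, 222 of the 940 lncRNA-end regions, or 23.6% (exact binomial 95% interval 20.9 to 26.5), fell in the strongest 20% of shared regions, beside 20% of all shared regions, 42.3% of regions at coding ends and 9.61% of the other far regions. A fold enrichment of at least 5 in both replicates was reached by 322 lncRNA-end regions, or 34.3%, beside 30% of all shared regions, 53.2% of coding-end regions and 19.7% of the other far regions. At least 10 in both was reached by 59, or 6.28%, beside 3.81% of all shared regions. The intervals cover counting error only, and neighbouring regions are not independent.

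The replicates ranked the regions alike in broad terms. Across the 940 regions, which share the ChIP and input libraries, Spearman's rho between the 2 fold enrichments was 0.68, beside 0.67 over all shared regions. The 94 strongest of replicate 1 and the 94 strongest of replicate 2 had 58 regions in common, or 61.7%. The 2 replicates' summits lay within 100 bp of each other at 75.1% of the regions, beside 76.9% of all shared regions. A single peak from each library formed 92.8% of the regions, beside 94.2% of all shared regions. Fold enrichment was higher in replicate 2 at 663 regions, or 70.5%, beside 68.2% of all shared regions. It was more than 2-fold higher in replicate 2 at 88 regions (9.36%, beside 8.88% of all) and more than 2-fold higher in replicate 1 at 7 regions (0.745%, beside 0.986% of all).

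**Figure D1:**
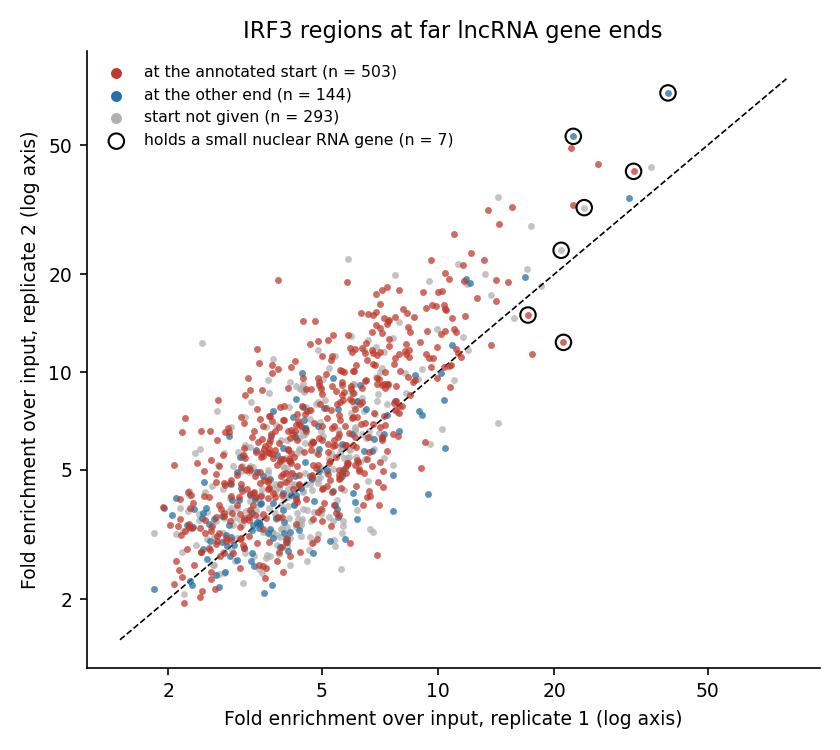
Fold enrichment over input of each of the 940 lncRNA-end regions in replicate 1 (x axis) and replicate 2 (y axis), both on log axes, with points coloured by whether the nearest lncRNA end is the annotated start, the other end or not given, and regions holding a small nuclear RNA gene circled. Most points, 663 of 940, lie above the dashed line of equality, and the 7 circled regions all lie above 12 in both replicates.

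The regions lay more often at the annotated start of the lncRNA gene than at its other end, a distinction that did not enter their choice. The start is known from the RefSeq promoter table for 647 of the 940 regions. The nearest end was the start at 503 of them, or 77.7% (74.3 to 80.9), and the other end at 144, or 22.3%. Per end, 523 of 7386 far starts (7.08%) had a summit of such a region within 1 kb, beside 152 of 8099 far other ends (1.88%) and 310 of 10121 far ends of genes whose start is not given (3.06%). The fold enrichment was also higher at starts, with medians of 4.88 and 6.20 at starts and 3.99 and 4.07 at other ends in replicates 1 and 2. Among regions at starts, 31.0% were in the strongest 20% of all shared regions (156 of 503), beside 11.8% at other ends (17 of 144). These differences were not tested, because the fold enrichments come from the contrast that chose the regions.

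Summits gathered close to the start and on both sides of it. The median distance from summit to gene end was 231 bp at starts and 532.5 bp at other ends, and 296 bp over all 940 regions. At starts, 241 summits lay upstream and 248 downstream of the start in the direction of transcription, and the median position was 10 bp downstream. The remaining 14 of the 503 regions had a table start more than 1 kb from their summit. Counting shared summits around lncRNA ends more than 15 kb from any coding end, starts had 8.61 summits per 1000 ends in each 250 bp bin within 1 kb, beside 2.34 per bin at 2 to 5 kb, a ratio of 3.68. The highest bin, the 250 bp after the start, held 127 summits or 18.7 per 1000 starts. Other ends had 2.24 per 1000 ends and bin within 1 kb, beside 2.49 at 2 to 5 kb, a ratio of 0.897. Bins at other ends were uneven, with 1.37 and 1.09 per 1000 ends in the 250 bp before and after the end (10 and 8 summits), and the highest, 4.10, in the bin that begins 1500 bp before it (30 summits).

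**Figure D2:**
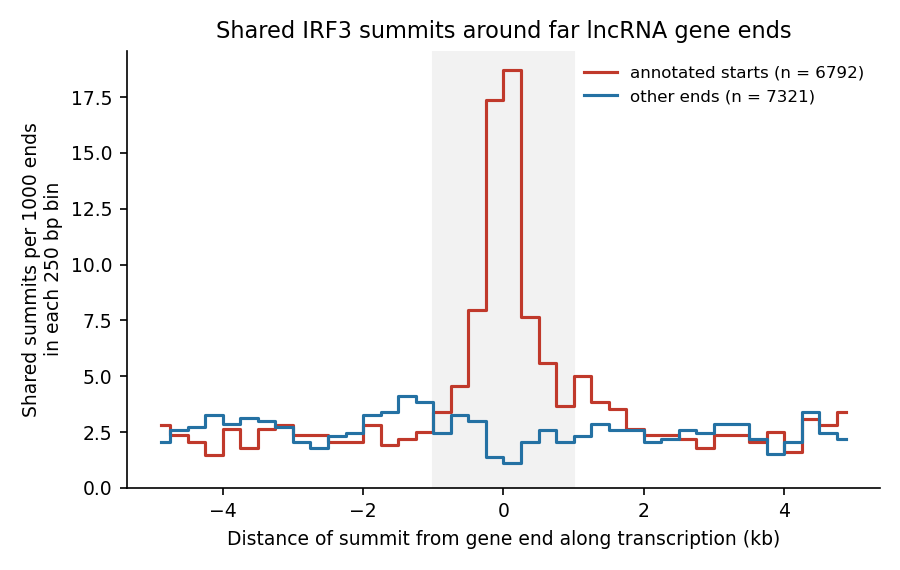
Shared IRF3 summits per 1000 gene ends in each 250 bp bin (y axis) by distance from the end along transcription in kb (x axis), for 6792 annotated lncRNA starts and 7321 other ends lying over 15 kb from coding gene ends; the grey band marks 1 kb on each side. The start line peaks at 18.7 just after the start, while the other-end line averages 2.24 within 1 kb and is at 1.37 and 1.09 beside the end itself.

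The share of lncRNA-end regions among far shared regions was largest in the strongest class. When all shared regions were cut into 5 equal classes of strength, lncRNA ends took 12.4% of the far regions in the strongest class (222 of 1794), then 6.31%, 4.75% and 4.10%, and 3.75% in the weakest (159 of 4239). Of the regions with a known start, 90.2% lay at the start in the strongest class (156 of 173), 78.6%, 77.0% and 65.3% in the next classes, and 69.4% in the weakest (77 of 111).

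**Figure D3:**
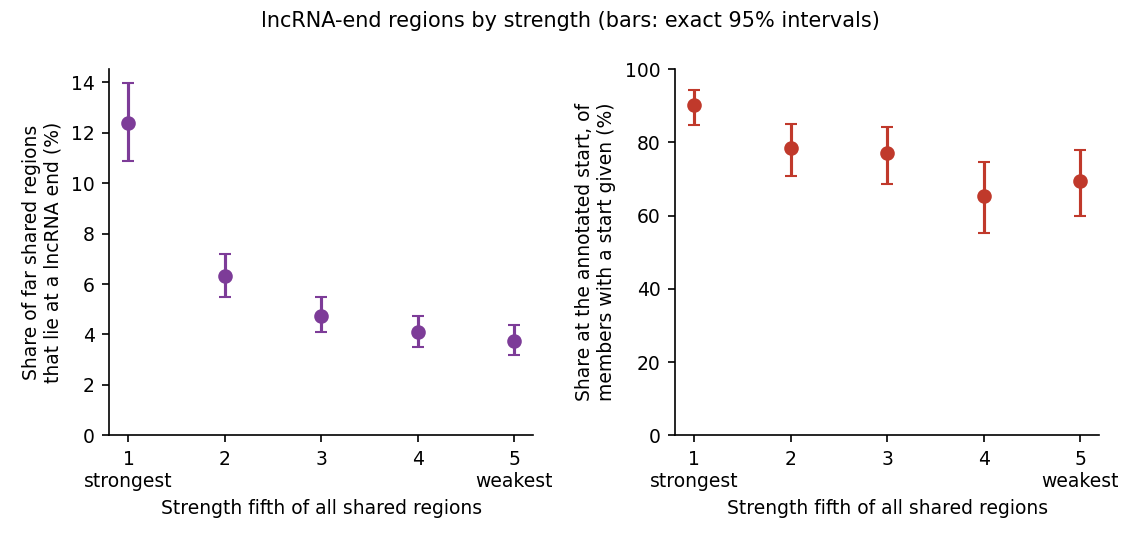
Left, share of far shared regions that lie at an lncRNA end (%), and right, share of lncRNA-end regions with a known start that lie at that start (%), by class of strength over all shared regions (1 the strongest, 5 the weakest), with exact 95% binomial intervals as bars. The left panel runs from 12.4% in class 1 to 3.75% in class 5, and the right panel from 90.2% in class 1 to 69.4% in class 5.

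Of the 12 best-ranked regions, 5 held a gene of a small nuclear RNA. The best-ranked region, at rank 10 of all shared regions, reached a fold enrichment of 39.5 and 72.4 in replicates 1 and 2 and lay at the other end of LOC112268274 (chr1:146376125-146378244), where it also held the small nuclear RNA gene LOC124904613. LINC01719 (32.1 and 41.5), LOC105379574 (22.4 and 53.2), LOC105371785 (23.9 and 32.1) and CLASP1-AS1 (20.9 and 23.7) were likewise regions that held an annotated small nuclear RNA gene, which for CLASP1-AS1 was RNU4ATAC, an RNA of the minor spliceosome. Small nuclear RNAs build the spliceosome. Many, though not all, are encoded by near-identical copies, and the reads of a region that holds such a copy may belong to another copy. For these regions the lncRNA end and the small RNA gene cannot be told apart as the bound element. In all, 7 regions held a small nuclear RNA gene, 6 a transfer RNA gene, 5 a microRNA gene, 1 a small nucleolar RNA gene and 1 an immunoglobulin V segment. Without these regions, an alternative added after seeing the data, 921 regions were left with medians of 4.44 and 5.42, and 22.8% in the strongest 20%. Small RNA genes were not counted over the other shared regions, so these counts and the 5 of 12 do not set lncRNA ends apart.

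The other best-ranked regions held no such gene, apart from DANCR. SNHG5, an RNA whose introns give rise to small nucleolar RNAs, had fold enrichments of 26.0 and 43.7 at its start (chr6:85678213-85679840), with the summit 71 bp from the start. LINC00673, an intergenic RNA gene on chromosome 17, had 22.1 and 49.1 (chr17:72591989-72593040). DANCR, an RNA known for holding progenitor cells undifferentiated, had 15.6 and 32.4 (chr4:52711818-52713349), and its region also held the small RNA genes SNORA26 and MIR4449. All 12 best-ranked regions were higher in replicate 2, and 5 of them, SNHG5, LINC00673, DANCR, LINC01719 and LOC101927932, lay at the annotated start. LOC100996756 (35.7 and 42.8), LOC124902378 (31.3 and 34.4), LOC101927932 (22.3 and 32.8) and LOC105379350 (17.4 and 28.1) are genes with a provisional symbol. The summit at LOC101927932 lay 21.9 kb from the nearest coding gene end, an end of GNAS, the gene of a G-protein subunit.

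Symbol classes of RNA genes differed in how often they had a region, beside 6.53% of all far lncRNA genes (928 of 14213). Host genes of microRNAs (MIR followed by HG) had a region at 14 of 67 genes, or 20.9% (interval 11.9 to 32.6), and host genes of small nucleolar RNAs (SNHG) at 3 of 11, or 27.3% (6.02 to 61.0). Genes named as antisense to a coding gene had a region at 9.49% (116 of 1222), LINC genes at 7.95% (169 of 2127) and genes with other symbols at 11.8% (63 of 535). Provisional LOC genes had a region at 5.52% (549 of 9953), intronic transcripts at 5.26% (4 of 76) and divergent transcripts at 4.50% (10 of 222). The 14 microRNA host regions had median fold enrichments of 8.68 and 10.0, and the 4 regions nearest to SNHG genes had 8.68 and 16.6, beside 4.47 and 5.45 over all 940 regions. The class differences were not tested, and an interval that holds 6.53% leaves a class indistinct from all far genes at this count.

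**Figure D4:**
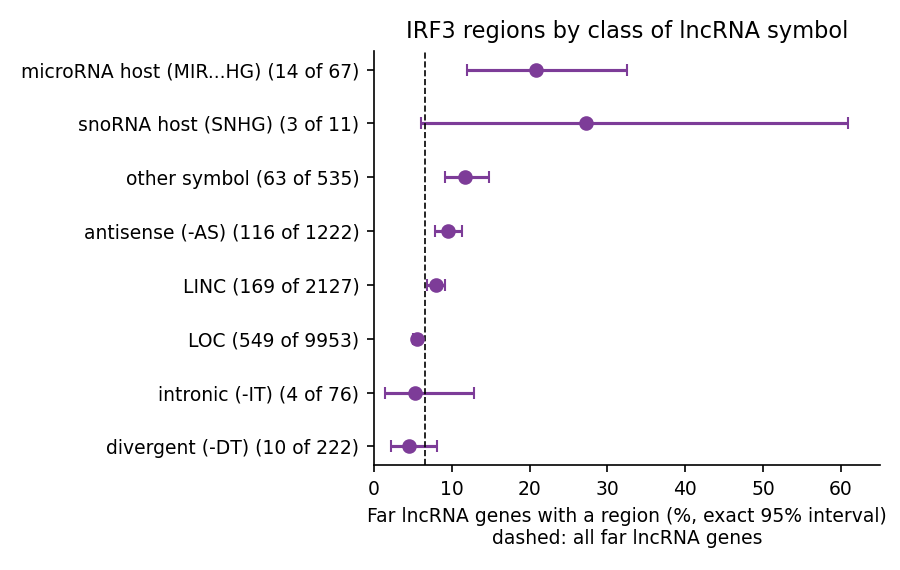
Share of far lncRNA genes with a region within 1 kb of a far end (%, x axis) by class of gene symbol, with exact 95% binomial intervals and the counts beside each class; the dashed line is the 6.53% of all far lncRNA genes. MicroRNA hosts (20.9%), other symbols (11.8%), antisense genes (9.49%) and LINC genes (7.95%) have intervals above the line, and LOC genes (5.52%) below it.

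Among microRNA hosts, the best-ranked regions lay at the starts of precursors of well-studied families. MIR23AHG, host of miR-23a, miR-27a and miR-24, had fold enrichments of 14.4 and 28.5. MIR17HG, host of the growth-promoting miR-17 cluster, had 11.6 and 21.3, MIRLET7A1HG, host of growth-restraining let-7 members, had 10.7 and 19.4, and MIR29B2CHG, host of miR-29 members, had 8.99 and 12.4. MIR3142HG, host of miR-146a, a brake on innate immune signalling, had 11.5 and 11.1. All of these but MIR3142HG were higher in replicate 2. MIR4435-2HG had 8.37 and 9.65, and the lowest values of any microRNA host were 2.16 in replicate 1 and 3.15 in replicate 2. The mature RNAs below come from RefSeq, build GRCh38.p14, and are shown because they are the products of these hosts, 5′ to 3′ with the seed (bases 2 to 8), which pairs with target messages, in capitals.
hsa-miR-17-5p: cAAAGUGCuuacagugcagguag
hsa-miR-20a-5p: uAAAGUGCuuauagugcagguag
hsa-miR-19a-3p: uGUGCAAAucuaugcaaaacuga
hsa-miR-19b-3p: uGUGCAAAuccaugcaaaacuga
hsa-miR-18a-5p: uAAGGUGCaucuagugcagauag
hsa-miR-92a-3p: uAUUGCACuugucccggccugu
hsa-miR-23a-3p: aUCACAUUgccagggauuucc
hsa-miR-27a-3p: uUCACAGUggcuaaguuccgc
hsa-miR-24-3p: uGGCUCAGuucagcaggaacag
hsa-let-7a-5p: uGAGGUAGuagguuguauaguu
hsa-let-7f-5p: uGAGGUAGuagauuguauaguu
hsa-let-7d-5p: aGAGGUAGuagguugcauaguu
hsa-miR-29c-3p: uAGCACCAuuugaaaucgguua
hsa-miR-29b-3p: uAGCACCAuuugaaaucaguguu
hsa-miR-146a-5p: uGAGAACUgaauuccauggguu

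By seed, miR-17-5p and miR-20a-5p form a family, miR-19a-3p and miR-19b-3p another, the let-7 members another, and miR-29c-3p and miR-29b-3p a further pair. The hairpins lay downstream of the bound start, with the mature RNAs of MIR17HG 2.78 to 3.52 kb from the summit, those of MIR23AHG 6.13 to 6.48 kb, those of MIRLET7A1HG 9.50 to 12.4 kb, those of MIR29B2CHG 20.4 to 21.1 kb and miR-146a-5p 17.4 kb. The peak thus lay at the host's start and not at the hairpins in these 5 hosts. Expression of the microRNAs was not measured in this series.

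Of 25 nuclear and regulatory RNAs listed by name, 21 were lncRNA genes in the table and 17 had a far end. A region was present at 7 of the 17, beside 6.53% of all far lncRNA genes, with median fold enrichments of 9.50 and 15.6, beside 4.47 and 5.45 over all 940 regions. NORAD, an RNA that binds PUMILIO proteins and guards chromosome stability, had 13.5 and 31.5 (chr20:36050354-36051378). EPB41L4A-AS1 had 10.5 and 15.6, and KCNQ1OT1, an imprinted RNA that silences its neighbours, had 9.50 and 19.1. JPX, an activator of X-chromosome inactivation, had 7.30 and 8.93, FIRRE, which helps arrange chromosomes in the nucleus, had 5.50 and 6.32, and PVT1, the neighbour of MYC, had 4.69 and 7.66. DANCR, given above, completes the 7. All 7 had higher fold enrichment in replicate 2. MALAT1, the abundant nuclear speckle RNA, is not among the 940 regions, because the nearest shared summit (44.5 and 86.6) lay 1403 bp from its end. The shared region around that summit spanned the whole gene. At NEAT1, the RNA that builds paraspeckles, a summit lay 217 bp from an end (45.4 and 69.3), but a coding gene end was within 10 kb.

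The 40 immune and blood cell RNAs listed by name held 27 different lncRNA genes with a far end. A region was present at 12 of the 27, beside 6.53% of all far lncRNA genes, with median fold enrichments of 6.54 and 9.43, beside 4.47 and 5.45 over all 940 regions. MIR4435-2HG, given above, was listed under its other name MORRBID too and is counted once; it sets the lifespan of myeloid cells in mouse. Beside the hosts MIR23AHG, MIR17HG, MIR29B2CHG and MIR3142HG, they were CYTOR (6.93 and 9.21), LINC00494 (5.65 and 9.15), PCED1B-AS1 (6.15 and 4.45), DLEU1, an RNA from a stretch often deleted in lymphoid leukaemia (3.44 and 10.7), LINC02384 (3.15 and 3.56), LINC01857 (3.12 and 2.25) and MIAT (2.42 and 3.32). The values given for these 12 genes ran from 2.25 to 28.5, and PCED1B-AS1, LINC01857 and MIR3142HG were higher in replicate 1. PCED1B-AS1 had a further region at its other end (3.72 and 2.21). At MIR155HG, host of the B-cell microRNA miR-155, the nearest shared summit (5.14 and 6.91) lay just outside the limit. It was inside the gene, 1206 bp from the end of higher coordinate. Members of both lists are well-known genes, and the lists were written with results of these data known, so their counts are not evidence about such genes in general.

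The remaining best-ranked regions of each class extend the picture. CHASERR, an RNA that holds down the neighbouring chromatin remodeller gene CHD2 in mouse, had 11.7 and 19.02 at its start. SNHG11, SNHG26 and SNHG33 had 9.62 and 22.1, 7.74 and 11.02, and 6.27 and 7.99, and GASAL1 had 14.3 and 34.6. Among antisense genes, MBNL1-AS1 had 17.0 and 20.8, BFSP2-AS1 had 16.8 and 19.6 and SPEN-AS1 had 12.1 and 18.8. Among LINC genes, LINC01003 had 14.1 and 19.3 and LINC01635 had 15.2 and 18.9. Divergent transcripts were led by SLC25A28-DT (7.25 and 14.7), NEMP2-DT (8.22 and 9.92), MAPK6-DT (5.84 and 13.0) and ZNF567-DT (5.13 and 9.85). The 4 intronic transcripts RASA3-IT1, RNF216-IT1, ERC2-IT1 and CACNA1C-IT2 had between 2.05 and 5.32 in either replicate. These regions were picked by rank of fold enrichment within their class, so their values only describe the top of each class.

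At the weak end, LOC105376957 (2.20 and 1.95), LOC124901043 (1.84 and 3.19) and LOC107985220 (1.84 and 2.15) had the worst ranks. The regions least alike between replicates were LOC124902934 (2.45 and 12.3, a log2 ratio of replicate 2 over replicate 1 of 2.32), LINC02901 (3.86 and 19.2), LINC00240 (5.84 and 22.3) and SV2C-AS1 (3.39 and 11.8) in 1 direction. In the other direction they were LOC124902873 (6.93 and 2.73, a log2 ratio of -1.34), LOC105378308 (5.62 and 2.48), LOC124909422 (9.44 and 4.22) and LINC02422 (6.78 and 3.23). With a single value per replicate these differences have no error of their own. Long regions were few, with 21 of at least 3 kb, or 2.23%, beside 1.25% of all shared regions, 2.26% of coding-end regions and 0.513% of the other far regions. The longest were LOC105371901 (8.59 kb), LOC105376146 (7.999 kb), LOC107984673 (5.98 kb) and LOC124901324 (5.67 kb).

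The regions were spread over the genome. The most lay on chromosome 1, with 91, followed by chromosome 5 with 79 and chromosome 2 with 78. On the chromosomes that had any, their share of shared regions ranged from 1.30% on chromosome 19 to 4.39% on chromosome 13. The median distance to the nearest coding gene end was 37.9 kb, beside 55.3 kb at the other far regions, and the longest was 1.995 Mb. Over 100 kb away lay 221 regions, or 23.5%. The upper quartile of that distance was 93.1 kb, beside 138 kb at the other far regions. Still, 319 regions, or 33.9%, lay inside the span of a coding gene, and their medians of 4.47 and 5.73 were near the 4.45 and 5.42 of the 621 regions outside. Only 29 regions, or 3.09%, had a coding start in the RefSeq promoter table within 1 kb, which the gene spans do not show. More than 1 lncRNA gene had an end within 1 kb at 53 regions. Of 7962 lncRNA genes longer than 5 kb with both ends far, 512 had a region at 1 end and 21 at both.

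The promoters of lncRNA genes bound at their start were richer in CpG than those of far lncRNA genes without a region at the start. They were less rich than bound coding promoters. Windows of 300 bases around the start were compared for 481 bound genes, each taken once. The 14 regions whose table start lay over 1 kb from the summit were left out. A window was called CpG-rich at a GC content of at least 55% and an observed-over-expected CpG ratio of at least 0.6. This held for 40.1% of bound lncRNA promoters (193 of 481), beside 6.45% of 6863 far lncRNA promoters without a region at the start. It held for 82.6% of 8224 coding promoters with a shared summit within 1 kb and 44.2% of all 27305 promoters in the table. The 6863 are called unbound here, but such a gene can have a region at its other end or a peak in 1 replicate alone. Some of the 523 far starts with a summit within 1 kb are in neither lncRNA group. The median GC content was 57.0% in bound lncRNA promoters, 45.3% in unbound ones and 65.7% in bound coding promoters. Among bound lncRNA promoters, 58.7% were CpG-rich where the region was in the strongest 20% of all shared regions (91 of 155) and 31.3% where it was not (102 of 326). The shares were not tested, and base composition differs between the groups as well.

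GC-rich promoter motifs followed the same order. The GC box GGGCGG, the site of SP-family factors, was in 40.3% of bound lncRNA promoters, 11.5% of unbound ones, 74.0% of bound coding promoters and 44.6% of all promoters, searched on both strands as were all motifs. The ETS motif CCGGAAG was in 11.02%, 2.68%, 23.0% and 10.7% of the same 4 groups. The NRF1-like motif (GCGCNTGCG followed by C) was in 5.20%, 0.831%, 13.9% and 6.28%, the cyclic-AMP response element TGACGTCA in 2.91%, 0.350%, 3.66% and 1.98%, the E-box CACGTG in 6.86%, 4.18%, 11.3% and 7.43%, and the YY1-like AAGATGGCG in 1.25%, 0.160%, 4.86% and 1.85%. In all 6 of these the bound lncRNA promoters lay between unbound lncRNA promoters and bound coding promoters. TATAAA ran the other way, at 9.98%, 19.8%, 5.07% and 11.95%. CCAAT was in 32.6%, 36.6%, 37.6% and 35.7%, and the AP-1 motif TGANTCA in 14.1%, 12.4%, 3.59% and 7.76%.

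IRF-type motifs were about as frequent in bound as in unbound lncRNA promoters. The ISRE-like motif was in 25 of 481 bound lncRNA promoters, or 5.20% (interval 3.39 to 7.58), beside 4.97% of unbound lncRNA promoters, 2.86% of bound coding promoters and 3.65% of all promoters. The shorter GAAANNGAA, which every ISRE-like match contains, was in 10.4%, 11.7%, 6.66% and 8.29% of those groups. The ETS-IRF composite, which can overlap both, was in 4.16% (20 of 481), 3.53%, 2.80% and 2.84%. These shares were not adjusted for base composition. Median GC content was 57.0% in bound lncRNA promoters, 45.3% in unbound ones and 65.7% in bound coding promoters. The 43 bound promoters with an ISRE-like or composite match had median fold enrichments of 4.90 and 6.98, beside 4.98 and 6.33 for all 481. Of the matches, 10 of 29 ISRE-like and 6 of 21 composite ones lay within 100 bp of the summit. The windows cover only part of a region, so what lies outside them was not analysed here. A summit lay inside the window of its nearest lncRNA gene at 151 of the 940 regions, or 16.1%, and 293 regions have no start given. The motif shares thus describe promoter windows, most of which do not hold the summit.

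**Figure D5:**
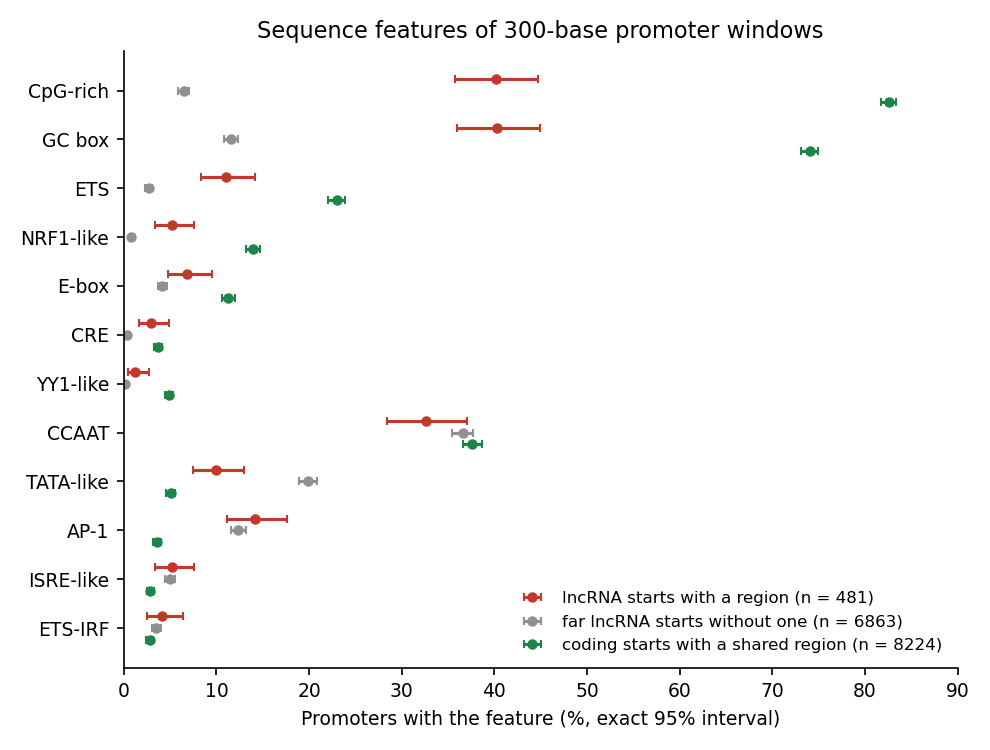
Share of 300-base promoter windows (%, x axis) that are CpG-rich or hold each motif, with exact 95% binomial intervals, for 481 lncRNA starts with a region, 6863 far lncRNA starts without a region and 8224 coding starts with a shared region. CpG-rich windows stand at 40.1%, 6.45% and 82.6% and the ISRE-like motif at 5.20%, 4.97% and 2.86%.

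IRF-type matches are shown for 4 regions, with the match in capitals between 10 bases on each side, from RefSeq, build GRCh38.p14. CARINH and LINC02642 combine a match with high fold enrichment, and in LOC124900981 and LOC100996740 the match lay 7 and 20 bp from the summit.
LOC124900981, chr5:57030348-57030377, plus strand: tgaagaagaaGGAAGTGAAActcgaaactg
LOC100996740, chr1:145214724-145214753, plus strand: cctgaaatctGAAACAGAAAgtcctgtcaa
LINC02642, chr10:7472077-7472106, minus strand: tttaacccagTTTCATTTCCgtttataaag
CARINH, chr5:132410880-132410909, plus strand: tcccggagggTTTCGCTTTCgctttcctgc

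LOC124900981 held a composite match and had fold enrichments of 5.69 and 10.0. LOC100996740 held an ISRE-like match and had 5.67 and 8.20. LINC02642 held a composite match on the other strand 74 bp from the summit and had 9.92 and 11.9. CARINH had 9.33 and 15.8 over a region of chr5:132409660-132412736, and its 3 matches lay 214, 220 and 247 bp from the summit, of which the pair nearest the summit overlap on the other strand. All 4 regions were higher in replicate 2. The regions were chosen for display after their values were seen.

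The limits of the choice fell among ordinary values. Just inside the limit to lncRNA ends were ECE1-AS1 at 998 bp (7.41 and 9.20), LOC102724417 at 997 bp (4.85 and 3.07) and LOC105379013 at 995 bp (3.30 and 3.70). Just outside were FOXN3-AS1 at 1008 bp (3.12 and 5.16), LINC01963 at 1009 bp (8.24 and 14.2) and LOC101927310 at 1009 bp (8.65 and 4.58). For the limit to coding ends, FLJ46875 (7.95 and 17.9), LOC124904432 (3.73 and 7.61) and SNHG11 lay just inside, at 10014, 10015 and 10055 bp. LOC105378925 (4.19 and 3.53), LOC124901382 (2.33 and 2.96) and LOC101927297 (7.56 and 8.91) lay just outside, at 9989, 9974 and 9961 bp.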

How the data were processed

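IRF3 ChIP-seq peaks from untreated MM1.S cells were analysed in 2 ChIP libraries, each called by the authors against the input of the same number. Per the file headers, peaks were called with MACS2 2.1.2 at a q-value cutoff of 0.05, while the submitters' processing notes name build GRCh38, SAMtools 1.2, deepTools 3.3.1, MACS2 2.1.1, Picard 2.6.0 and BWA 0.7.15, without roles. The deposited fold enrichment is a ratio of ChIP pileup to local input background, and the deposited pileup is a signal in stacked fragments. The deposited −log10 p and −log10 q had damaged column names and were told apart by the MACS2 column order; they chose nothing here. Fold enrichment depends on antibody recovery and input depth, so medians of different libraries are not differences in binding, and the total tags set the precision. The sources used here do not say whether duplicates or problem regions were removed before calling.

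Peaks overlapping by at least 1 bp were merged (Python 3.11.15, numpy 2.4.6, pandas 2.3.3), and each replicate's strongest peak gave the region's fold enrichment. Gene spans and 300-base promoters came from RefSeq tables of GRCh38.p14. Coordinates are 1-based. The promoter table gives the strand and start of 62.6% of lncRNA genes and none on chromosome 8, where 48 of the 940 regions lie. No model was fitted and no test was run. Intervals are Clopper-Pearson at the 95% level (scipy 1.17.1). The merging and distance steps were checked on simulated data. The regions, gene lists, motifs and alternatives were chosen with earlier results of these data known. Named regions are the 12 best-ranked, the 3 worst-ranked, those nearest each distance limit, the 4 with the largest ratio between replicates in each direction, the 4 longest, listed genes, and up to 4 best-ranked per symbol class. Those shown for an IRF-type match were chosen after their values were seen. Alternatives varied the overlap, fold enrichment, distance limits, summit, gene symbols and replicates.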

Additional observations from a re-analysis of the deposited data

How the results depend on the processing

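Of 71 values recomputed under other settings, 52 moved by less than the replicate spread, their interval or 1.5 times, and 19 moved by more. With a fold enrichment of at least 5 in both replicates, 322 regions were left, with medians of 7.07 and 9.50, 87.5% at the annotated start and 2.34% of far lncRNA genes with a region. Without LOC genes there were 388 regions, 30.2% in the strongest 20%, 82.7% at the start and 8.90% of far genes. At a limit of 500 bp to lncRNA ends, 84.9% lay at the start and 4.61% of far genes had a region. At a limit of 2 kb, 20.01% were in the strongest 20%, 69.1% lay at the start and 9.31% of far genes had a region. Over 5 kb and over 20 kb from coding ends, 7.09% and 5.87% of far genes had a region. With 1 replicate left out in turn, the number of regions was 1172 to 1227, the share in the strongest 20% was 23.7% to 24.2%, the share at the start 74.7% to 77.8%, the share of far genes 7.74% to 8.15%, and the medians 4.08 in replicate 1 and 4.65 in replicate 2. Annotated starts held the majority of regions with a known start under all 13 settings tried.

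No paired analysis was possible because the inputs have no peak list of their own and no test was run. The windows cover promoters and not whole regions, and 293 regions have no start given. With 1 peak value per replicate, single regions carry no error of their own.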

Other observations

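Peaks found in 1 replicate alone also lay at far lncRNA ends. They were 190 of 8164 peaks alone in replicate 1, or 2.33% (exact 95% interval 2.01 to 2.68), with a median fold enrichment of 3.25 beside 3.14 for all such peaks, and 272 of 8679 alone in replicate 2, or 3.13% (2.78 to 3.52), with a median of 3.31 beside 3.20. Shared regions chosen by the same positions were 2.92% of all shared regions. The highest fold enrichment of the 190 and 272 peaks was 8.86.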
